A study of Mus musculus with 10 samples.

Results

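Germinal centre genes were taken as Bcl6, S1pr2, Fas, Mybl1 and Gcsam, and their probe sets were found by gene symbol in the platform annotation of the array. These are 5 of the 18193 genes named there, with 9 of the 45037 probe sets on the array that were not controls. The spleens came from PG-immunized female BALB/c mice. In this strain, injections of cartilage proteoglycan (PG) with the adjuvant DDA lead to autoimmune joint inflammation (PGIA) in some animals and not in others. Old arthritic mice (n = 2) were both 9 months old, and old non-arthritic mice (n = 2) were 5 and 7 months old. Young arthritic mice (n = 2) were 4 and 5 months old, and young non-arthritic mice (n = 4) were 1 to 3 months old. All 10 mice had received PG and DDA, and no unimmunized spleen is in the comparison. Each array held RNA from a piece of 1 spleen, and the labels call the arrays of a group biological replicates. In both age classes the arthritic animals were the older ones, without exception, so age and arthritis cannot be told apart inside a class. A 5-month-old mouse stood in the old class and another in the young class. The labels do not say whether these ages are those at the first injection or at harvest. The study dates its other age groups by the first injection, so the mice may have been some months older at harvest than given here.

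A germinal centre forms in a B cell follicle after immunization. Its B cells divide, mutate their antibody genes and compete for help from T follicular helper cells on a network of follicular dendritic cells. Bcl6 encodes the transcriptional repressor that B cells and T follicular helper cells need for this reaction. S1pr2 encodes a sphingosine 1-phosphate receptor that keeps B cells inside the germinal centre, and Gcsam encodes an adaptor of B cell receptor signalling found in germinal centre B cells. Fas encodes a death receptor that is raised on these cells, and Mybl1 encodes A-Myb, a transcription factor of dividing germinal centre B cells. Bcl6 and Fas are also expressed by other cells of the spleen. In RNA from a whole piece of spleen, fewer cells of a type and less RNA per cell cannot be told apart.

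Bcl6 protein binds DNA at a sequence close to the palindrome TTCNNNGAA, which STAT factors also recognise, and human BCL6 is known to repress its own gene. The 250 bases before each annotated start of a member gene were therefore searched for TTCNNNGAA, a motif that reads the same on both strands. Windows came from RefSeq on GRCm38.p6 and covered 4 of the 5 genes, with Bcl6 having 2 starts, and Mybl1 was not analysed here in this respect. The motif was in 3 of these 5 windows, against 7.02% of all 32851 windows of this length. Both Bcl6 windows were among the 3. By gene, 2 of the 4 held it, against 8.13% of the 27025 genes searched. The windows with a match are shown on the strand of the gene with the motif in capitals, because they are the member sequences that hold it. The Bcl6 window at chr16:23988853-23989102 lies before the outer start, and that at chr16:23981284-23981533 lies before a start inside the span of the gene, both on the minus strand. The Fas window is chr19:34290409-34290658 on the plus strand.
Bcl6, outer start: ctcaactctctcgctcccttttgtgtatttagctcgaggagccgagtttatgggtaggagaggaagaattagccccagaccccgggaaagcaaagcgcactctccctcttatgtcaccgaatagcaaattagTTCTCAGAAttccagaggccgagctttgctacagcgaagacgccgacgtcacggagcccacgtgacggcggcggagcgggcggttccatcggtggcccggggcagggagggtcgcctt
Bcl6, inner start: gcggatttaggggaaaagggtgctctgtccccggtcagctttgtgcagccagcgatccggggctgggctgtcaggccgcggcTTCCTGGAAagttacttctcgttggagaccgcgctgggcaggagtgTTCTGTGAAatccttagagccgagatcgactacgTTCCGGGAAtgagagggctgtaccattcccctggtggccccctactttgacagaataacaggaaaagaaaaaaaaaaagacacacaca
Fas: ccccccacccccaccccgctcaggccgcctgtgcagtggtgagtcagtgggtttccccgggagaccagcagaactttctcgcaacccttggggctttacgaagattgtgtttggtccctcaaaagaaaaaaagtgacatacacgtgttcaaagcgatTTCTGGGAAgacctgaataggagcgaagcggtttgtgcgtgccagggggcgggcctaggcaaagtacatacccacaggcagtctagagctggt
The inner Bcl6 window held 3 matches, TTCCTGGAA, TTCTGTGAA and TTCCGGGAA, which began 168, 122 and 88 bases before the start. The outer window held TTCTCAGAA at 118 bases, and the Fas window held TTCTGGGAA at 93 bases. No match was found in the window of S1pr2 (chr9:20976794-20977043) or of Gcsam (chr16:45610190-45610439). A match is a description of the letters, and binding was not measured.

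Signal was read as log2 RMA values, in which 1 unit is a doubling of the probe set's summarised brightness, and levels of different probe sets are not compared as amounts of RNA. The median of an array lay between 6.88 and 6.96. Of the 9 member probe sets, 6 lay above the median of the array in all 10 mice and 3 lay below it in all 10 mice. Those above were both probe sets of Bcl6, both of S1pr2, the single probe set of Fas and 1 of the 2 of Gcsam. Those below were both probe sets of Mybl1 and Gcsam 1442582_at. The brightest was Bcl6 1421818_at, between the 80.3 and 85.1 percentile of the probe sets of its array. Fas 1460251_at was the lowest of those above the median, at the 60.9 to 65.7 percentile. Mybl1 1450481_at was the dimmest, at the 6.23 to 21.1 percentile, while Mybl1 1456951_at reached 48.7 and Gcsam 1442582_at reached 48.5 at their highest. Mybl1 therefore had no probe set above the median of any array. These values came without detection calls, so whether the 3 dim probe sets were above background could not be read.

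**Figure D1:**
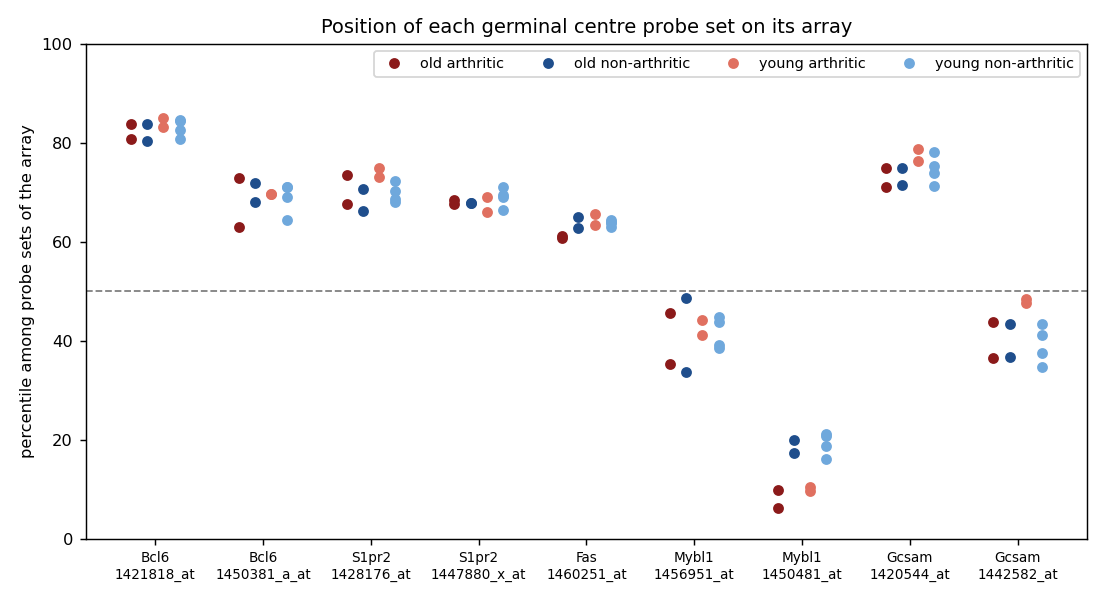
Position of each germinal centre probe set on its array, as a percentile among all probe sets of that array (vertical axis), with 1 point per mouse coloured by group and the array median as a dashed line. The 6 probe sets of Bcl6, S1pr2, Fas and Gcsam 1420544_at stay above the line in all 10 mice, and both Mybl1 probe sets and Gcsam 1442582_at stay below it.

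The tissue label held, since the B cell genes Cd79a and Ms4a1, the T cell gene Cd3e and the red pulp macrophage genes Spic and Cd5l were above the median of all 10 arrays. Old arthritic replicate 2 stood apart from the other arrays. Its score on the first principal component, which carried 40.0% of the variance, was 52.6, and the next highest score was 19.6. Differences in old mice are therefore given with and without this mouse.

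Differences were tested with limma, with p-values adjusted by Benjamini-Hochberg over the 23805 probe sets that lay above the array median in at least 2 mice, at a threshold of 0.05. The 6 brighter member probe sets were among them. The 3 dimmer ones were read from a fit of all 45037 probe sets. Besides the comparisons within an age class, arthritic and non-arthritic mice were compared at equal age, in a fit that held age in months and arthritis status together. That fit takes signal as a straight line on age. Arthritic mice were 4 to 9 months old and non-arthritic mice 1 to 7 months old. Only at 5 months was there a mouse of each status, so the comparison rests largely on this line.

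Bcl6 overlapped between arthritic and non-arthritic mice of either age class on both of its probe sets. Bcl6 1421818_at read 9.80 and 9.53 in old arthritic mice, against 9.40 and 9.78 in old non-arthritic mice. It read 10.04 and 9.87 in young arthritic mice, against 9.92, 9.89, 9.51 and 9.63 in young non-arthritic mice. The order of the group means was young arthritic, young non-arthritic, old arthritic and old non-arthritic, and each group overlapped the next, although both young arthritic mice were above all 4 old mice. The log2 difference, arthritic minus non-arthritic, was 0.08 in old mice (SE 0.18, limma adjusted p = 0.84) and 0.22 in young mice (SE 0.16, adjusted p = 0.475). In old mice it was 0.21 without old arthritic replicate 2, and it ran between -0.12 and 0.27 with any 1 mouse left out. At equal age it was 0.26 (SE 0.15, adjusted p = 0.306), with a 95% interval of -0.06 to 0.59. Bcl6 1450381_a_at ranged more widely, between 7.92 in old arthritic replicate 2 and 8.81 in old arthritic replicate 1, so that the extremes of all 10 mice came from 1 group. Its difference in old mice was -0.16 (SE 0.28, adjusted p = 0.781), and it was 0.28 without old arthritic replicate 2 and -0.60 without old arthritic replicate 1. No direction was therefore set for this probe set in old mice.

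S1pr2 1428176_at had the lowest adjusted p of the 6 brighter probe sets. It read 9.06 and 8.90 in young arthritic mice, against 8.39, 8.58, 8.75 and 8.40 in young non-arthritic mice. It read 8.86 and 8.33 in old arthritic mice, against 8.20 and 8.62 in old non-arthritic mice. Both young arthritic mice were above all 4 young non-arthritic mice, whereas the old groups overlapped. The log2 difference was 0.45 in young mice (SE 0.18, limma adjusted p = 0.233) and 0.18 in old mice (SE 0.20, adjusted p = 0.641). At equal age it was 0.49 (SE 0.16, 95% interval 0.14 to 0.85), with an unadjusted p of 0.0111 and an adjusted p of 0.111 in limma, so the call was not made. In old mice it was 0.45 without old arthritic replicate 2 and -0.08 without old arthritic replicate 1, so no direction was set there. At equal age it was 0.54 without old arthritic replicate 2 (limma adjusted p = 0.0649) and between 0.40 and 0.57 with any 1 mouse left out, uncalled each time. An exact two-sided permutation test of the 4 arthritic against the 6 non-arthritic mice, which takes no account of age, gave p = 0.105. The other S1pr2 probe set did not share the difference. S1pr2 1447880_x_at, whose suffix marks probes that may also match other transcripts, read 8.55 and 8.27 in young arthritic mice, against 8.25, 8.47, 8.65 and 8.47 in young non-arthritic mice. Its difference at equal age was 0.04 (SE 0.11, limma adjusted p = 0.865, 95% interval -0.21 to 0.28). The correlation of the 2 probe sets over the 10 mice was 0.418, and with both averaged the difference of S1pr2 at equal age was 0.26 (limma adjusted p = 0.222).

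Gcsam had its highest mean in young arthritic mice on both probe sets, as did S1pr2 1428176_at, both probe sets of Bcl6, Fas and Mybl1 1456951_at. S1pr2 1447880_x_at was highest in young non-arthritic and Mybl1 1450481_at in old non-arthritic mice. Gcsam 1420544_at read 9.19 and 9.44 in young arthritic mice, against 8.92, 9.02, 9.27 and 8.62 in young non-arthritic mice. It read 8.99 and 8.64 in old arthritic mice, against 8.62 and 8.97 in old non-arthritic mice. The groups overlapped in both classes, in the young class through 1 non-arthritic mouse at 9.27. The log2 difference was 0.36 in young mice (SE 0.19, limma adjusted p = 0.334), 0.03 in old mice (SE 0.21, adjusted p = 0.959) and 0.40 at equal age (SE 0.18, adjusted p = 0.212). In old mice it was 0.20 without old arthritic replicate 2 and -0.15 without old arthritic replicate 1. The dim probe set Gcsam 1442582_at read 6.80 and 6.70 in young arthritic mice, against 5.94, 6.23, 6.43 and 5.85 in young non-arthritic mice. These groups did not overlap, and the old groups, at 6.49 and 5.95 in arthritic mice against 6.01 and 6.43 in non-arthritic mice, did. In the fit of all probe sets its difference was 0.64 in young mice (SE 0.20, limma adjusted p = 0.0819) and 0.48 at equal age (SE 0.21, adjusted p = 0.151). The 2 Gcsam probe sets moved together over the 10 mice although one was bright and the other dim (Pearson r = 0.851, permutation p = 0.00254, adjusted over 10 pairs 0.0135; Spearman rho = 0.794, permutation p = 0.00902, adjusted 0.0451). Without the 2 mice farthest from the median r was 0.77.

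Fas was the steadiest of the brighter members after S1pr2 1447880_x_at, with an SD of 0.14 over 10 mice. It read 7.81 and 7.77 in old arthritic mice, against 7.92 and 8.14 in old non-arthritic mice. It read 8.03 and 8.23 in young arthritic mice, against 8.07, 8.03, 7.97 and 8.01 in young non-arthritic mice. Both old arthritic mice were below the other 8 mice, and the young groups overlapped. The log2 difference was -0.24 in old mice (SE 0.11, limma adjusted p = 0.269, 95% interval -0.48 to 0.00) and 0.11 in young mice (SE 0.09, adjusted p = 0.543). Without old arthritic replicate 2 the difference in old mice was -0.22, and with any 1 mouse left out it lay between -0.35 and -0.13. The difference between the 2 effects was -0.35 (SE 0.14), with an unadjusted p of 0.0349 and an adjusted p of 1.00 in limma. At equal age the difference was 0.06 (SE 0.10, limma adjusted p = 0.737). The old arthritic mice were also the oldest, at 9 months, so age and arthritis cannot be told apart for their low Fas values. The slope of Fas on age at equal arthritis status was -0.04 per month (SE 0.02, limma adjusted p = 0.509), in a fit that includes these mice. In non-arthritic mice the difference of Fas, old minus young, was 0.01 (SE 0.09, limma adjusted p = 0.998).

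Mybl1 differed between its 2 probe sets. Mybl1 1450481_at read 4.21 and 4.02 in old arthritic mice and 4.20 and 4.17 in young arthritic mice, against 4.67 and 4.78 in old non-arthritic mice and 4.48, 4.81, 4.68 and 4.90 in young non-arthritic mice. All 4 arthritic mice were below all 6 non-arthritic mice. The mean was 4.15 ± 0.09 in arthritic mice (SD, n = 4) and 4.72 ± 0.15 in non-arthritic mice (SD, n = 6). In the fit of all probe sets the log2 difference was -0.61 in old mice (SE 0.14, limma adjusted p = 0.0392) and -0.54 in young mice (SE 0.12, adjusted p = 0.0298). At equal age it was -0.52 (SE 0.11, limma adjusted p = 0.0121). The exact two-sided permutation test, which takes no account of age, gave p = 0.00476, the smallest that 4 against 6 mice allow. This p restates the separation above and was not adjusted over the 9 member probe sets. Of all 45037 probe sets, 17.4% were separated between arthritic and non-arthritic mice, in either direction. The sign held with any 1 mouse left out, but the calls did not. In old mice the call held in 3 of 10 such fits. It was lost without old arthritic replicate 2 (-0.51, limma adjusted p = 0.192), either old non-arthritic mouse (0.12 and 0.199), either young arthritic mouse (0.0625 each) and young non-arthritic replicates 2 and 3 (0.0531 and 0.0561). In young mice it held in 5 of 10, and was lost without either young arthritic mouse (limma adjusted p = 0.1415 and 0.207) and without young non-arthritic replicates 2, 3 and 4 (0.0642, 0.0546 and 0.0573). At equal age it held in 8 of 10, at 0.0158 without old arthritic replicate 2, and was lost without old non-arthritic replicate 1 (limma adjusted p = 0.0739) and without young arthritic replicate 2 (0.0894). With the replicate number as a block, the limma adjusted p was 0.029 at equal age but 0.0899 in the old and 0.175 in the young class, and with the 2 compared groups alone it was 0.131 in old and 0.0448 in young mice.

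The signal of this Mybl1 probe set was in the lowest part of every array, and calls at such levels were common. Of the 21232 probe sets below the filter, 17.7% passed in this fit at equal age, 1967 of them lower and 1791 higher in arthritic mice, against 7.21% of the 23805 brighter ones in the same fit. Mybl1 1456951_at, the brighter of the 2, read 6.63 and 5.87 in old arthritic mice, against 5.80 and 6.85 in old non-arthritic mice. It read 6.24 and 6.43 in young arthritic mice, against 6.06, 6.43, 6.54 and 6.12 in young non-arthritic mice. All groups overlapped, and the difference at equal age was 0.08 (SE 0.25, limma adjusted p = 0.849, 95% interval -0.46 to 0.63). The correlation of the 2 Mybl1 probe sets over 10 mice was 0.176. The 2 probe sets thus gave no common direction for the gene, and what share of either signal was background was not tested.

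**Figure D2:**
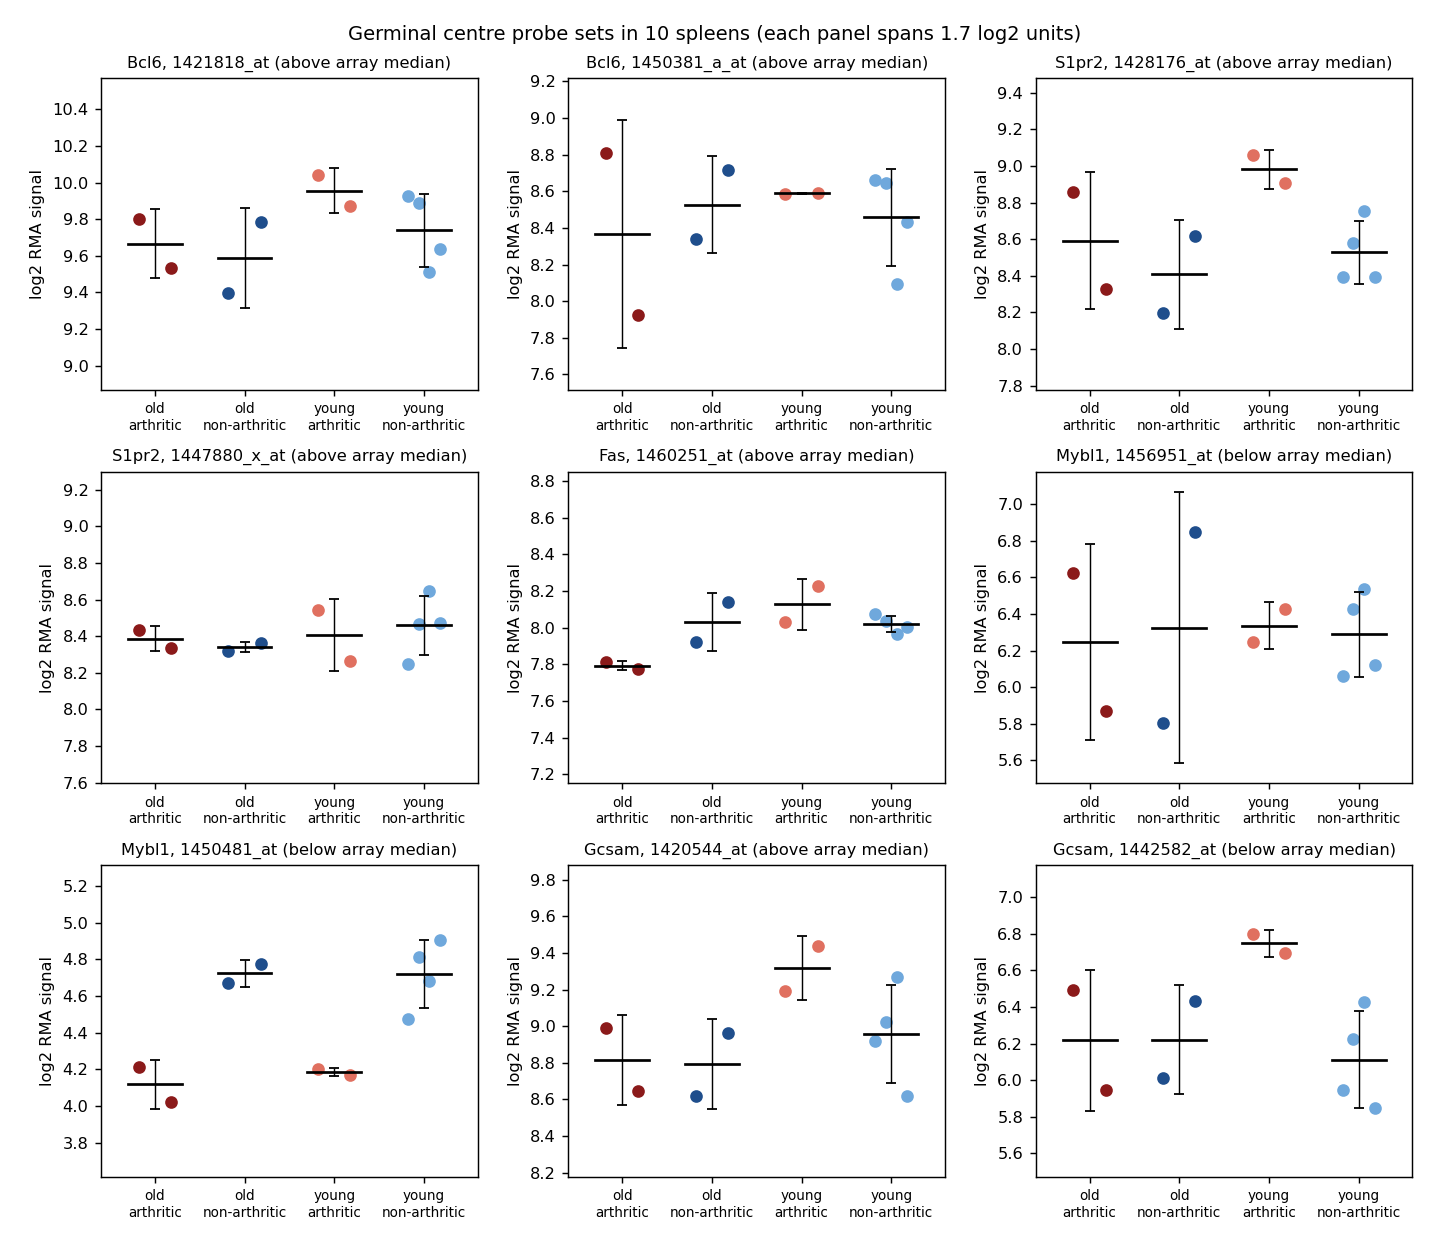
Log2 RMA signal (vertical axis) of the 9 germinal centre probe sets in the 4 groups, with 1 point per mouse, the group mean as a thick line and 1 SD as error bars; every panel spans the same number of log2 units. In the panel of Mybl1 1450481_at the 4 arthritic mice, at 4.02 to 4.21, lie below the 6 non-arthritic mice, at 4.48 to 4.90, and S1pr2 1428176_at and Gcsam 1442582_at are higher in both young arthritic mice than in all young non-arthritic mice.

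Counted over the members, none of the 6 brighter probe sets passed the threshold in any comparison. For age in mice without arthritis, 0 of 6 differed between old and young non-arthritic mice, and 0.0% of all 23805 did. Their median log2 difference, old minus young, was -0.12, against -0.02 over all probe sets, and 0 of 6 had an unadjusted limma p under 0.05, as did 3.19% of all. For arthritis in old mice, 0 of 6 were called in limma, against 0.0714% of all, and none had an unadjusted p under 0.05, against 18.6% of all. For arthritis in young mice, 0 of 6 were called, against 0.311% of all, and 1 of 6, S1pr2 1428176_at, had an unadjusted p under 0.05, against 18.2% of all. With so low a share called over the whole array, a count of 0 among 6 probe sets is not a result about these genes.

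At equal age 0 of the 6 were called in limma, against 2.26% of all probe sets, and 2 of 6, S1pr2 1428176_at and Gcsam 1420544_at, had an unadjusted p under 0.05, against 22.9% of all. The 6 fitted differences were all positive, from 0.04 to 0.49, with a median of 0.16 against 0.09 over all probe sets. This shared sign depended on the age term. Without that term the difference was -0.004 for Bcl6 1450381_a_at, -0.02 for S1pr2 1447880_x_at and -0.06 for Fas. It was 0.12 for Bcl6 1421818_at, 0.30 for S1pr2 1428176_at and 0.16 for Gcsam 1420544_at. At equal age with 1 mouse left out, Bcl6 1450381_a_at, S1pr2 1447880_x_at and Fas reached -0.03, -0.03 and -0.06. The test of whether arthritis acted differently in the old and the young class called 0 of 6 and 0.0% of all probe sets. Fas alone among the 6 had an unadjusted limma p under 0.05 there, against 3.1% of all. For age in months at equal arthritis status 0 of 6 were called, against 0.0042% of all. The 6 slopes were all negative, from -0.07 per month for Gcsam 1420544_at to -0.01 for Bcl6 1450381_a_at, with none at an unadjusted p under 0.05, against 9.98% of all. Without old arthritic replicate 2 the slope of Bcl6 1450381_a_at was 0.03. The slopes come from the same fit as the differences at equal age and are not independent of them.

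With all 45037 probe sets in the fit, 1 of the 9 member probe sets, Mybl1 1450481_at, was called lower in each arthritis comparison. Over all probe sets this fit called 5.06% for the old class, 7.07% for the young class and 12.2% at equal age. By the values themselves, 2 of the 9 did not overlap between old arthritic and old non-arthritic mice, Fas and Mybl1 1450481_at, both lower, where 54.7% of all probe sets did not overlap. In young mice 3 of 9 did not overlap, S1pr2 1428176_at and Gcsam 1442582_at higher and Mybl1 1450481_at lower, against 37.1% of all. Over both classes 1 of 9 did not overlap, against 17.4% of all. In none of the 3 settings was the members' share above that of the whole array.

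**Figure D3:**
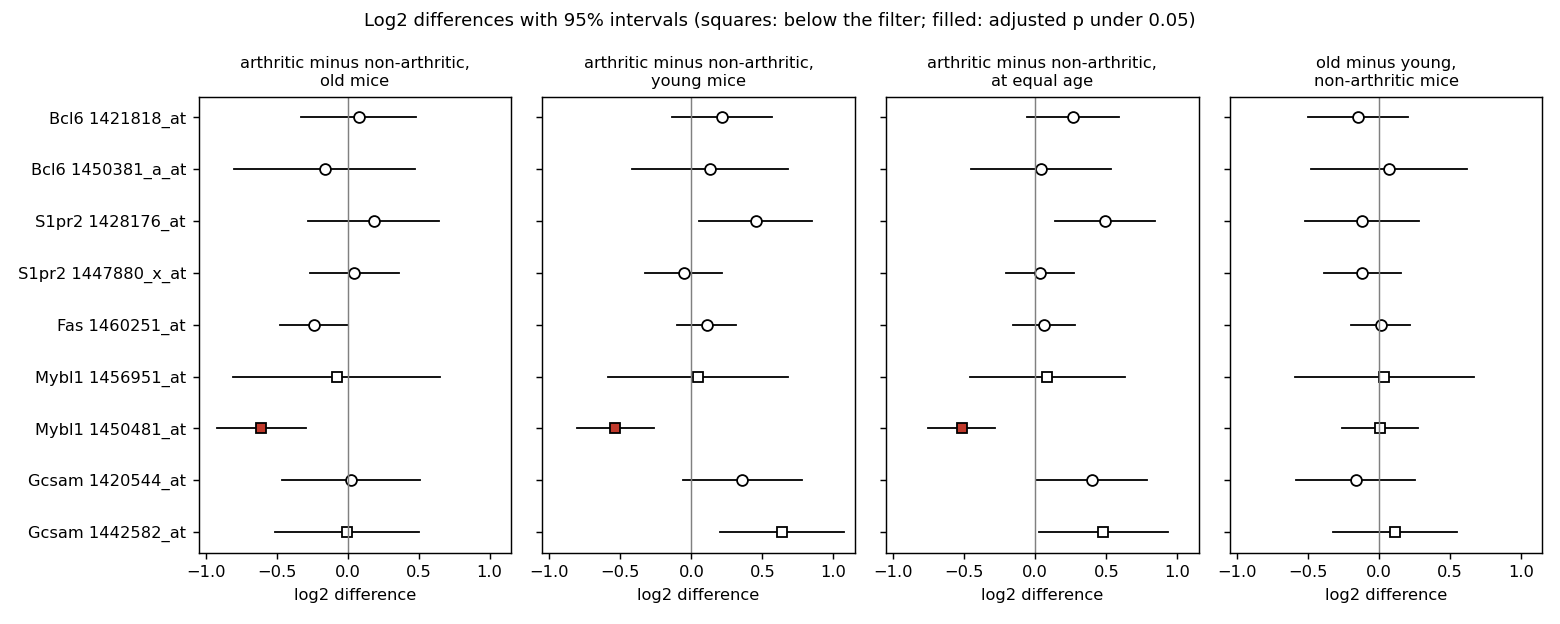
Log2 differences of the 9 germinal centre probe sets (rows) with 95% intervals from limma in 4 comparisons (horizontal axes in log2 units); circles are from the fit of the brighter probe sets, squares from the fit of all probe sets, and filled symbols have an adjusted p under 0.05. The filled symbols are the 3 of Mybl1 1450481_at, at -0.61, -0.54 and -0.52, and the intervals of S1pr2 1428176_at in young mice and at equal age lie above 0.

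Among the brighter members, 1 probe set of S1pr2 varied together with 1 of Gcsam over the 10 mice pooled. Over the 10 mice S1pr2 1428176_at and Gcsam 1420544_at correlated with Pearson r = 0.85 (permutation p = 0.0027, adjusted over 10 pairs 0.0135) and Spearman rho = 0.818 (permutation p = 0.00612, adjusted 0.0451). Without the 2 mice farthest from the median of S1pr2 r was 0.844, without old arthritic replicate 2 it was 0.826, and within the 6 non-arthritic mice it was 0.896. The 4 arthritic mice are too few for a value of their own. Bcl6 1421818_at gave r = 0.63 with S1pr2 (adjusted permutation p = 0.135), 0.538 with Gcsam (0.185) and 0.511 with Fas (0.19), and the within-gene pair of Bcl6 gave 0.731 (0.0542). None of these passed the threshold. The points share the normalization of the arrays, and a common share of cells was not tested as a source of the pattern.

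**Figure D4:**
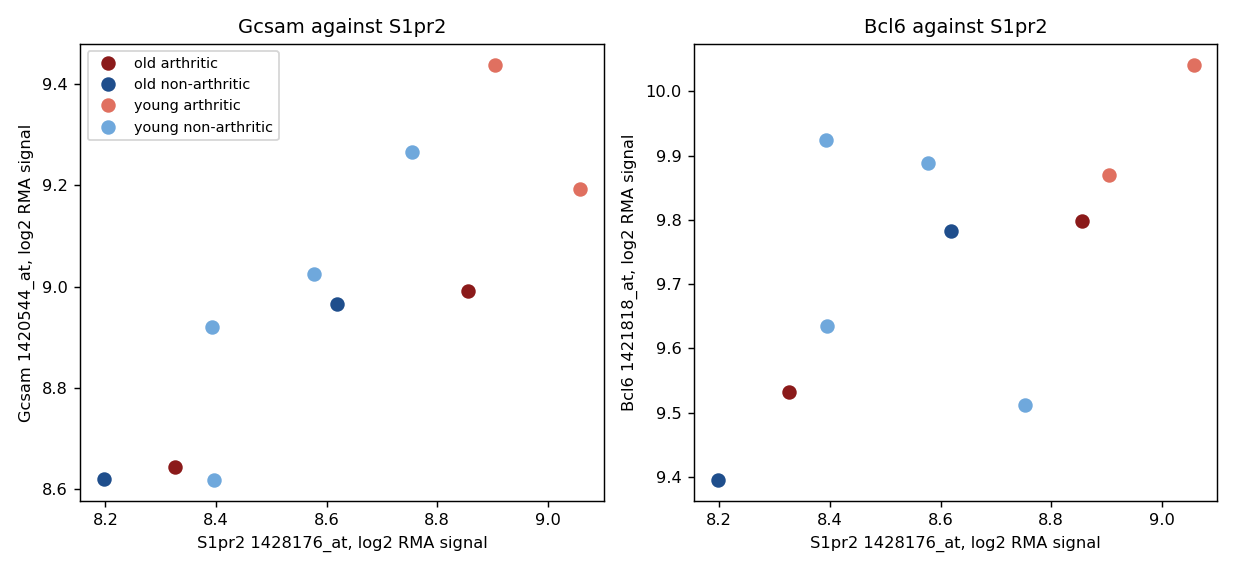
Log2 RMA signal of Gcsam 1420544_at (left panel, vertical axis) and of Bcl6 1421818_at (right panel, vertical axis) against S1pr2 1428176_at (horizontal axes), with 1 point per mouse coloured by group. Over the 10 mice pooled Gcsam correlates with S1pr2 at r = 0.85, although the 2 young arthritic mice stand in opposite order, and Bcl6 scatters more (r = 0.63), with a young non-arthritic mouse high in S1pr2 (8.75) and low in Bcl6 (9.51).

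The 3 genes with the pattern most like that of each brighter member gene included no other member, and Mybl1 was not searched for. Among 11870 named genes over the 10 mice, Bcl6 1421818_at was followed most closely by Idi1 (r = 0.954), Sqle (0.951) and Cyp51 (0.929), which encode enzymes of isoprenoid and sterol synthesis. S1pr2 1428176_at was closest to Dlg2 (0.959), Fam193a (0.92) and Zdhhc13 (0.917). Fas was closest to Parp8 (0.944), Mef2a (0.925) and Casp4 (0.921), and Gcsam 1420544_at to Msl1 (0.946), Akirin2 (0.941) and Top1 (0.937). These are the highest of many correlations over few mice and are given as a description.

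Other genes of the germinal centre reaction were read from lists, with 1 probe set per gene. Of 18 brighter genes of germinal centre B cell identity and positioning, 0 were called in limma in the arthritis comparisons, against 0.0927% of 11870 genes for the old class, 0.236% for the young class and 2.3% at equal age. At an unadjusted p under 0.05 there were 3, 4 and 3 of the 18, against 19.9%, 19.5% and 24.8% of the 11870 genes. In young mice 17 of the 18 differences were positive, with a median of 0.15 against 0.11 over all genes, and in old mice 7 were positive, with a median of -0.02 against 0.07. In old mice 11 were positive without old arthritic replicate 2, with a median of 0.08 against 0.03. The lowest p at equal age belonged to Tnfrsf17, the receptor BCMA of late B cells and plasma cells, at 1.04 (SE 0.25, limma adjusted p = 0.0606), with means of 8.71 in arthritic and 7.75 in non-arthritic mice. Tnfrsf17 is also in the plasma cell list, whose median in old mice was 0.53, and 0.04 without old arthritic replicate 2. Next by p were Ezh2, the histone methyltransferase that germinal centre B cells raise, at 0.30 (adjusted p = 0.138), and Cxcr4, the receptor that draws them to the dark zone, at 0.47 (adjusted p = 0.206). Of 5 genes that B cells lower on entry, none was called and 1, 0 and 0 had an unadjusted p under 0.05. Their medians were -0.35 in old mice, -0.11 without old arthritic replicate 2, and 0.01 in young mice. At equal age 2 of the 5 differences were positive and 3 negative, with a median of -0.02 against 0.11 over all genes. Fcer2a (CD23), among the negative ones, was at -0.23 (limma adjusted p = 0.428).

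In the machinery of antibody gene mutation and switching, 12 brighter genes gave 0 calls in limma, with medians of 0.17 in old and 0.21 in young mice, against 0.07 and 0.11 over all genes. At an unadjusted p under 0.05 there were 5, 3 and 5 of the 12 for the old class, the young class and equal age, against 19.9%, 19.5% and 24.8% of all genes, of which 0.0927%, 0.236% and 2.3% were called. At equal age Paxip1, an adaptor of switching, was at 0.31 (SE 0.07, limma adjusted p = 0.0541), Msh6, a mismatch repair protein, at 0.30 (adjusted p = 0.107) and Ung, the uracil glycosylase, at 0.37 (adjusted p = 0.136). Among 15 corepressors and targets of Bcl6 there were 0 calls and medians of 0.00 in old and 0.12 in young mice, with 1, 1 and 3 at an unadjusted p under 0.05 in the same order. Without old arthritic replicate 2 the medians in old mice were 0.19 for mutation and switching and -0.04 for the corepressors and targets. The corepressor Mta3 was at 0.16 (adjusted p = 0.197), and the targets Cdkn1b and Chek1 were at 0.39 and 0.34 (adjusted p = 0.14 and 0.192). None of these differences passed the threshold.

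The gene lists for cells that B cells meet in the germinal centre had medians of opposite sign in the 2 classes. With all mice in the fit this also held for the lists of germinal centre B cell identity, genes lowered on entry, B cells, macrophages and the Fas pathway. For example, the medians in old and young mice were -0.17 and 0.09 for macrophage genes and -0.03 and 0.05 for B cell genes. Among 10 brighter T follicular helper genes the median was -0.15 in old and 0.14 in young mice, with 0 calls in limma and 0, 1 and 1 at an unadjusted p under 0.05 for the old class, the young class and equal age. Over all genes 0.0927%, 0.236% and 2.3% were called, 19.9%, 19.5% and 24.8% had an unadjusted p under 0.05, and the medians in old and young mice were 0.07 and 0.11. At equal age 6 of the 10 differences were positive and 4 negative, with a median of 0.05 against 0.11 over all genes. Among the positive ones, Maf, a transcription factor of these cells, was at 0.29 (limma adjusted p = 0.204). Among 11 follicular dendritic cell genes the medians were -0.07 and 0.15 in old and young mice, with 0 calls and 1 gene at an unadjusted p under 0.05 in each. All 11 had a more negative difference in old than in young mice, with a median of -0.22 against -0.04 over all genes. In limma 0 passed the test of that difference, with 1 at an unadjusted p under 0.05, against 3.66% of all genes. The difference was also more negative in old mice for 58.2% of all genes and for 12 of 12 macrophage genes (median -0.30, 4 at an unadjusted p under 0.05). The same held for 10 of 11 T cell genes (median -0.21, 2 at an unadjusted p under 0.05). The part of these cells in the difference was not tested, and Vcam1 is in both the follicular dendritic cell and the macrophage list. Leaving out old arthritic replicate 2, the difference was more negative in old mice for 10 of the 11 follicular dendritic cell genes. For the pathway of Fas, 12 genes gave medians of -0.07 in old and 0.14 in young mice and 0 calls, with 0, 0 and 1 at an unadjusted p under 0.05, and Bid, which carries the death signal to mitochondria, was at 0.32 at equal age (adjusted p = 0.124). For sphingosine 1-phosphate, 11 genes gave medians of 0.04 and 0.14 and 0 calls, with 2, 3 and 2 at an unadjusted p under 0.05. Without old arthritic replicate 2 the medians in old mice were -0.13 for T follicular helper, -0.10 for follicular dendritic cell, -0.10 for Fas pathway and 0.08 for sphingosine 1-phosphate genes, against 0.03 over all genes. Sphk2, a kinase that makes the ligand, was at 0.41 at equal age (adjusted p = 0.0647) and Sgpl1, the lyase that destroys it, at 0.25 (adjusted p = 0.0993).

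Of the Myb family and its cell cycle partners, 8 genes were bright enough, and 1, Myb itself, passed at equal age in limma, where 2.3% of all genes did. At an unadjusted p under 0.05 there were 5, 5 and 6 of the 8 for the old class, the young class and equal age, against 19.9%, 19.5% and 24.8% of all genes. Their medians were 0.39 in old mice, 0.33 without old arthritic replicate 2, and 0.29 in young mice. Myb, the c-Myb factor of immature blood cells, was read from 1421317_x_at, again a suffix for probes that may match other transcripts. It stood at 11.11 and 11.20 in old arthritic mice, against 10.69 and 10.76 in old non-arthritic mice. It stood at 11.22 and 11.40 in young arthritic mice, against 11.13, 10.88, 11.21 and 11.07 in young non-arthritic mice. The groups did not overlap within a class, and over both classes they did. Its difference at equal age was 0.47 (SE 0.10, limma adjusted p = 0.0439), opposite in sign to that of Mybl1 1450481_at. The adjusted p without 1 mouse lay between 0.0397 and 0.236, and the call was lost without old arthritic replicate 2 (0.0542), either old non-arthritic mouse (0.234 and 0.128), either young arthritic mouse (0.0953 and 0.236) or young non-arthritic replicate 2 (0.0571). The partners E2f4 and Foxm1 were at 0.34 and 0.43 (adjusted p = 0.067 and 0.0694).

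Levels of cell type markers beside these values differed by type, and their part in the results was not tested. In limma 0 of these genes were called, and counts at an unadjusted p under 0.05 are given for the old class, the young class and equal age. Over all genes 0.0927%, 0.236% and 2.3% were called in these comparisons, and 19.9%, 19.5% and 24.8% had an unadjusted p under 0.05. For 11 B cell genes (0, 0 and 0) the mean level per mouse was 11.37 to 11.52 in arthritic and 11.27 to 11.55 in non-arthritic mice, with median differences of -0.03 in old and 0.05 in young mice. For 19 proliferation genes (7, 10 and 3) all 19 differences were positive in young and 18 in old mice, with medians of 0.42 and 0.43, and the mean level per mouse was 11.12 to 11.41 in arthritic and 10.43 to 11.11 in non-arthritic mice. For 11 neutrophil genes (10, 2 and 10) the median was 1.20 in old and 0.42 in young mice, and the mean level was 12.58 to 13.26 in arthritic and 11.62 to 12.81 in non-arthritic mice. For 10 plasma cell genes (2, 2 and 3) the medians were 0.53 and 0.29, and the mean level was 10.28 to 11.19 in arthritic and 10.18 to 10.39 in non-arthritic mice. The value of 11.19 was old arthritic replicate 2 alone, and the other old arthritic mouse was at 10.28, against 10.18 and 10.28 in old non-arthritic mice. Medians in old and young mice were -0.17 and 0.00 for 11 T cell genes (1, 1 and 0), -0.17 and 0.09 for 12 macrophage genes (3, 3 and 2) and 0.23 and 0.41 for 6 erythroid genes (0, 0 and 0). With old arthritic replicate 2 left out, the medians in old mice were 0.04 for plasma cell, 0.07 for B cell, 0.35 for proliferation, 0.96 for neutrophil, -0.21 for T cell, -0.21 for macrophage and 0.22 for erythroid genes.

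**Figure D5:**
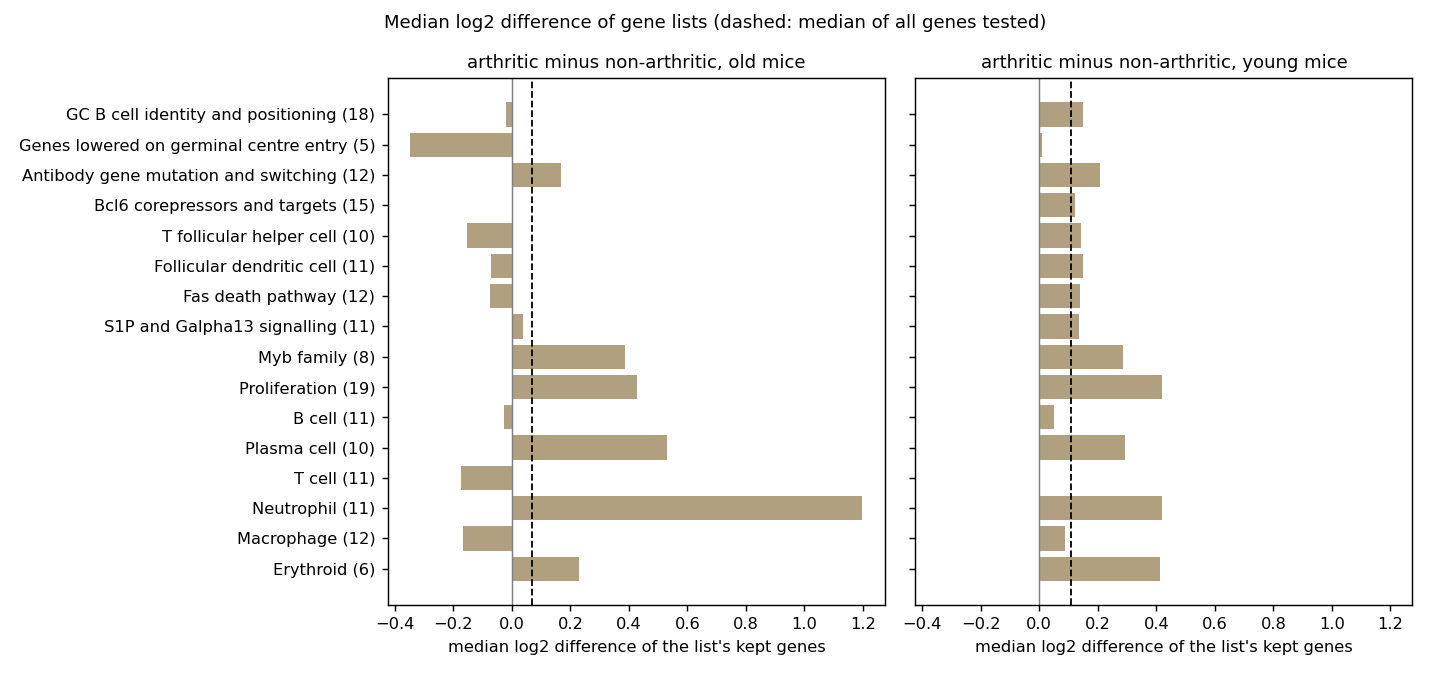
Median log2 difference between arthritic and non-arthritic mice (horizontal axes, log2 units) of each gene list, in old (left) and young (right) mice, with the number of brighter genes of each list in brackets and the median over all genes as a dashed line (0.07 and 0.11). The neutrophil list reaches 1.20 in old mice, 0.96 without old arthritic replicate 2, the plasma cell list 0.53 in old mice, 0.04 without it, the proliferation list 0.43 and 0.42, and the germinal centre B cell list lies at -0.02 and 0.15.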

How the data were processed

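Gene expression in spleen pieces of 10 PG-immunized mice was measured on Affymetrix arrays with biotin-labelled cRNA. The deposited values are log2 signals that the authors made with RMA, which corrects background, normalizes between arrays and summarises probes; its version and settings are not given in the sources used here. After removal of 64 control rows, 45037 probe sets remained, of which 34945 carried 1 gene symbol, 932 several and 9160 none in the platform annotation. Probe sets with several symbols named no gene. Probe sets brighter than the array median on 2 or more arrays were kept (23805). limma 3.58.1 in R 4.3.3 (lmFit, eBayes, Benjamini-Hochberg) fitted 4 group means (6 residual degrees of freedom), and separately age in months with arthritis status (7 residual degrees of freedom); the fit was tested on simulated data. The paper states no method for the arrays. Age is used as labelled; if it is that at the first injection, a shift common to all mice would leave the fits with age unchanged. Medians of the gene lists without old arthritic replicate 2 were added after seeing the data.

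The members and all gene lists were chosen with earlier results of these data known. Named genes were all member probe sets, list genes past the threshold or otherwise up to 3 with the smallest p at equal age, and the 3 genes most correlated with each brighter member. A list gene was read from its probe set of highest mean. Alternatives were other filters, centring of arrays on their medians, a trend of the spread on intensity, the replicate number as a block, fits of the compared groups alone, gene means over probe sets, and leaving out each mouse. The labels do not say that replicate numbers pair mice, and the main fits did not pair them. Correlations used 100000 permutations and scipy 1.17.1. With 2 to 4 mice in a group, their number limits the precision.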

Additional observations from a re-analysis of the deposited data

How the results depend on the processing

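The counts of called member probe sets were recomputed under each alternative. Among the brighter members the count was 0 in every comparison and stayed 0 with a stricter filter, arrays centred on their medians, a trend of the spread on intensity, fits of the 2 compared groups alone and any 1 mouse left out. With no filter it was 1 for the old class, 1 for the young class and 1 at equal age, in each case Mybl1 1450481_at, by the construction of testing the dim probe sets too. The dim member probe sets gave 3 calls, 1 call with the replicate number as a block, and 0 to 3 calls with 1 mouse left out, 0 without young arthritic replicate 2. With the block the limma adjusted p of Mybl1 1450481_at was 0.0899 in old and 0.175 in young mice, and with the old groups alone it was 0.131. The block also took the difference of Bcl6 1421818_at in young mice to 0.05 and its old minus young difference in non-arthritic mice to -0.32, neither called, and it changed no other member call. In their deviations from the group mean, same-numbered mice of different groups correlated between -0.525 and 0.356. In groups of 2 these deviations mirror each other, so this check cannot tell whether the numbers pair mice. The limma call of Myb was lost with the stricter filter (adjusted p = 0.0525), centred arrays (0.0598) and the block (0.0857). No result changed sign while called. Of 550 single values with 1 mouse left out, 530 kept their side of the threshold and 20 lost a call, and 48 uncalled values changed sign. Over all brighter probe sets, leaving out 1 mouse gave 0 to 872 calls at equal age, against 538, 0 to 1532 in old mice, against 17, and 0 to 84 in young mice, against 74. With arrays centred the equal age count was 274, with the stricter filter 265 and with the block 29. The causes were not tested.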
